A study of Mus musculus with 6 samples.

Results

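General capillary cells (gCap) were examined in droplet single-cell RNA-seq of endothelial cells sorted from mouse lungs at embryonic day (E) 18.5, just before birth, and at postnatal day (P) 8, when alveoli are forming. They were picked from the unique molecular identifier (UMI, 1 per captured mRNA) counts of each cell by a fixed rule. A cell passed quality control with at least 700 detected genes and 0.5 to 10% of its UMIs from mitochondrial genes. It was taken as an endothelial cell (EC) with at least 3 UMIs of Pecam1, Cdh5 and Cldn5 together and at most 2 of Col1a1 and Col3a1. An EC was called gCap with at least 2 UMIs of Gpihbp1, at least 1 of Plvap, none of the arterial genes Gja4 and Stmn2, none of Car4, at most 1 of the proliferation genes Mki67 and Top2a together, and under 10 of Fabp4. The rule held for 360 of 9083 ECs at E18.5 and 44 of 8291 ECs at P8, in all 404 of 17374 ECs, out of 63659 cell barcodes in the 6 libraries of the series. The 13 genes of the rule are given below only as a description, since they chose the cells.

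Both time points used lungs of Cxcl12DsRed/+ mice, in which 1 copy of the chemokine gene Cxcl12 carries a DsRed reporter that also disrupts that copy. Lungs of 2 to 4 animals per time point were pooled, and cells that stained for CD31 and showed the red reporter, and that lacked EpCAM and CD45, were sorted. The sort therefore favoured cells in which the Cxcl12 locus was active, so the number of gCap cells in these libraries is no measure of their number in the lung. Each time point was 1 library. No test between E18.5 and P8 was possible, and all differences below are descriptions of those libraries with their counting error. A sorted E15.5 library of the same genotype (131 gCap cells of 8911 ECs) and 2 unsorted whole-lung E18.5 libraries, labelled control (Cxcl12DsRed/+) and Cxcl12 null (Cxcl12DsRed/DsRed), were counted by the same rule and stand beside the results as further values. The labels of the whole-lung pair go against their Cxcl12 levels: their ECs held 4.47 counts per 1000000 UMIs (CPM) in the library labelled control and 541 CPM in the library labelled null, so no direction between genotypes was drawn from them. The names of their deposited files give the genotypes the other way round from the labels, as the Cxcl12 levels do, and the groups here follow the labels.

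gCap cells line the capillary bed around the alveoli together with aerocytes, the large thin Car4-positive cells across which gas is exchanged. They bind lipoprotein lipase through GPIHBP1, carry PLVAP in the diaphragms of their caveolae, and are known as the progenitors that divide and replace both capillary types after injury. They respond to apelin, the ligand made by aerocytes, through the receptor APLNR, and express the stem cell factor receptor KIT.

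The 4 sorted libraries and the whole-lung pair held 63746333 to 117522172 UMIs each. gCap cells held 2063170 UMIs at E18.5 (median 5329 per cell) and 215450 at P8 (median 4751.5), so that 1 UMI stood for 0.485 and 4.64 CPM. Pairs of libraries shared 20 to 54 barcodes, except for 140 between the whole-lung libraries; the E18.5 and P8 libraries shared 25. Sex differed between the pools. At E18.5, 72 gCap cells held UMIs of Xist and none of 4 Y-linked genes, and 156 the reverse, while at P8 the numbers were 42 and 0. A doublet caller marked 10 of the 360 gCap cells at E18.5 (2.78%) and 0 of 44 at P8 (interval up to 8.04%), against 7.94% and 8.90% of the other ECs. Among cells that met the rule but for Gja4 or Stmn2 UMIs it marked 211 of 1807 (11.7%) and 285 of 3354 (8.50%). Intervals given with CPM values and shares are exact 95% intervals and cover counting error only, not the differences between animals, pools or sorts.

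gCap cells made up 3.96% (3.57 to 4.39) of the sorted ECs at E18.5 and 0.531% (0.386 to 0.712) at P8, against 1.47% at E15.5 and 11.4% and 22.5% in the whole-lung libraries labelled null and control. Without the limit on Gja4 and Stmn2, an alternative chosen after the data were seen, the order was the reverse, with 23.9% at E18.5 and 41.0% at P8. With each EC thinned to 2000 UMIs before the rule, the shares were 4.005% and 1.56%. The limit on Gja4 and Stmn2 set this difference more than any other part of the rule. Of the cells that met every other part, 360 of 2167 (16.6%) had no UMI of either gene at E18.5 and 44 of 3398 (1.29%) at P8. The median of the summed Gja4 and Stmn2 UMIs over those cells was 5 at E18.5 and 14 at P8. By contrast, the Gpihbp1 minimum kept 79.1% and 74.6% of the cells that met the rest, and the Plvap minimum 69.2% and 78.6%. Cells outside the endothelial gate and with none of its 3 endothelial genes also held Gja4 or Stmn2 UMIs, in 62 of 228 cells at E18.5 (27.2%, median 8449 UMIs, 48.0 CPM of both genes) and in 13 of 66 at P8 (19.7%, median 7095 UMIs, 38.0 CPM). Cells gated as lymphatic held them more often, in 81.0% of 105 cells at E18.5 (median 9057 UMIs, 689 CPM of both genes) and 74.2% of 62 at E15.5 (510 CPM). The cells kept outside by this limit alone held 1017 CPM of Gja4 and 1754 CPM of Stmn2 at P8, and 822 and 714 CPM at E18.5. How many cells free RNA put outside the limit was not tested. These cells, which met the rule but for at least 1 UMI of Gja4 or Stmn2 (1807 at E18.5, 3354 at P8), are called counterparts.

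**Figure D1:**
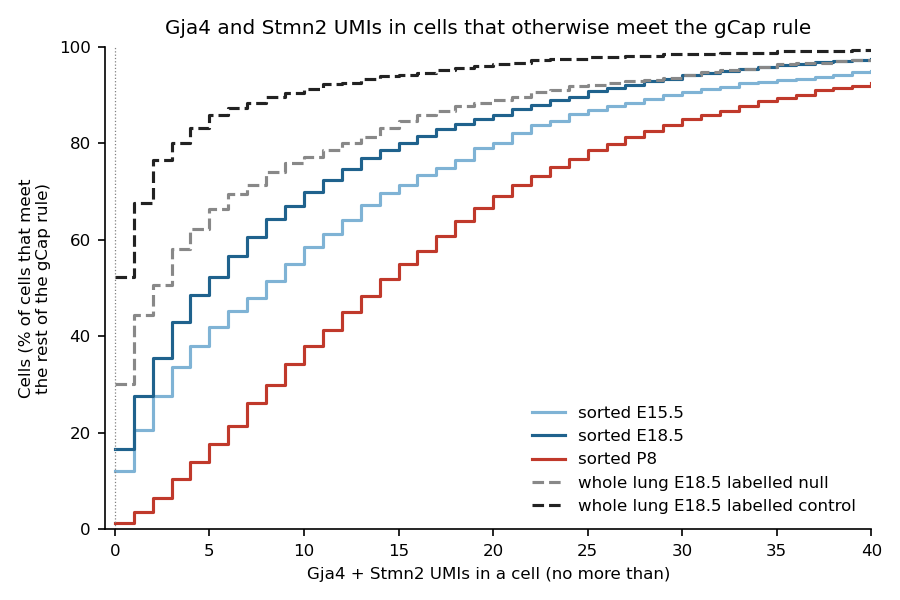
Cumulative percentage of the cells that meet every other part of the gCap rule (vertical axis) with no more than a given number of Gja4 and Stmn2 UMIs (horizontal axis), 1 line per library. At 0 UMIs the lines start at 1.29% for sorted P8, 11.95% for sorted E15.5, 16.6% for sorted E18.5, and 30.2% and 52.3% for the whole-lung libraries labelled null and control.

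At E18.5 the 52 members with exactly 2 Gpihbp1 UMIs held 169 CPM of Aplnr and 272 of Kit, and the 46 cells with 1 Gpihbp1 UMI held 112 and 165 CPM, while Vwf was at 15.3 CPM in the former and 165 CPM in the latter. The 240 cells with exactly 1 Gja4 or Stmn2 UMI held 98.9 CPM of Aplnr and 67.4 CPM of Cxcl12, against 153 and 20.8 CPM in the members, and the 715 cells with 10 or more held 26.0 and 1289 CPM. At P8 the 78 cells with exactly 1 such UMI already held 519 CPM of Cxcl12, against 83.5 CPM in the 44 members. In the 232 P8 cells with 2 or 3 such UMIs Cxcl12 was at 458 CPM, and in the 331 such cells at E18.5 at 87.3 CPM. The 2231 P8 cells with 10 or more held 1523 CPM of Cxcl12. At P8 Aplnr was higher just outside the limit, at 162 CPM with 1 such UMI and 141 CPM with 2 or 3, against 130 CPM in the members. With 10 or more it was at 80.2 CPM.

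The label was set beside markers that the rule did not use. Aplnr stood at 153 CPM (137 to 171) in gCap cells and 39.9 CPM in the other ECs at E18.5, and at 130.0 CPM (86.4 to 188) and 78.7 CPM at P8. Kit stood at 198 and 200 CPM in gCap cells at E18.5 and P8, against 91.3 and 115 CPM in the other ECs. The E15.5 members and both whole-lung libraries gave 127 to 161 CPM of Kit and 198 to 204 CPM of Aplnr. Both receptors were thus higher in the gCap cells of every library than in that library's other ECs. Of those other ECs, 6227 of 8723 at E18.5 and 5932 of 8247 at P8 were gated as arterial by Gja4 or Stmn2 UMIs, which the rule excludes. The contrast was therefore set in part by the rule. In the nearer cells with 2 or 3 such UMIs, Kit was at 191 and 189 CPM and Aplnr at 73.45 and 141 CPM at E18.5 and P8. Of the gCap markers outside the rule, 2 of the 7 measured at E18.5 were 2-fold higher in gCap cells (Aplnr and Kit) and 1 lower, beside 0.471% and 4.09% of all genes of at least 20 CPM, with a median log2 ratio of 0.16. At P8 0 of 8 were higher and 1 lower, beside 4.43% and 7.37%, with a median of −0.41. Summed over the 9 markers outside the rule, gCap cells were below the other ECs at both times, with 1853 against 2054 CPM and 2771 against 3264 CPM, and below the counterparts, with 2228 and 3642 CPM. The name gCap is therefore used here for the cells that meet the rule. Tek, the angiopoietin receptor, and Ptprb, the phosphatase that restrains it, stood lower in gCap cells at E18.5 (91.1 against 169 CPM and 356 against 752 CPM), and Glp1r was near 0, with 18 UMIs at E18.5 and 0 at P8.

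Markers of other cell types were present to differing degrees. Aerocyte markers summed to 1163 and 1151 CPM in gCap cells at E18.5 and P8, against 1409 and 2368 CPM in the other ECs and 6017 and 5519 CPM in the Car4-positive class. Of those measured outside the rule, 1 of 8 was 2-fold lower in gCap cells than in the other ECs at E18.5 (4.09% of all genes) and 5 of 10 at P8 (7.37%), with 0 higher. The rule leaves out cells with Car4 UMIs, and 85.7% of ECs at E18.5 and 69.8% at P8 had none. These counts therefore describe the choice of cells as well. The aerocyte genes Ednrb, Apln and Emp2 were present at 117, 53.8 and 55.7 CPM at E18.5 against 767, 131 and 1040 CPM in the 232 cells of the Car4-positive class. Haemoglobin transcripts summed to 42.2 and 46.4 CPM in gCap cells of the E18.5 and P8 libraries and to 1275 and 923 CPM in the other ECs. Epithelial markers summed to 66.4 and 149 CPM against 702 and 760 CPM, immune markers to 7.27 and 4.64 CPM, and pericyte markers to 17.9 and 9.28 CPM. Lymphatic markers summed to 771 and 650 CPM in gCap cells, against 666 and 401 CPM for all other ECs, 838 and 521 CPM for the Car4-positive class and 741 and 413 CPM for the counterparts, and most of this was Lyve1, a hyaluronan receptor, with 1450 UMIs in 284 of 360 members and 122 UMIs in 32 of 44. Lyve1 was also higher than in the other ECs, at 703 against 388 CPM and at 566 against 358 CPM. The lymphatic regulator Prox1 was at 1.94 and 4.64 CPM, the latter 1 UMI, and the lymphatic chemokine gene Ccl21a had 4 UMIs at E18.5 and 0 at P8. Arterial markers summed to 1562 and 2831 CPM, against 8197 and 6821 CPM for all other ECs, 4809 and 6984 CPM for the counterparts and 1025 and 2233 CPM for the Car4-positive class, with Sox17 and Tm4sf1 among the largest contributors. What part cells of these other types had in the results was not tested. Vwf, the platelet-binding von Willebrand factor of larger vessels, was at 7.76 and 4.64 CPM against 224 and 136 CPM in the other ECs.

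**Figure D2:**
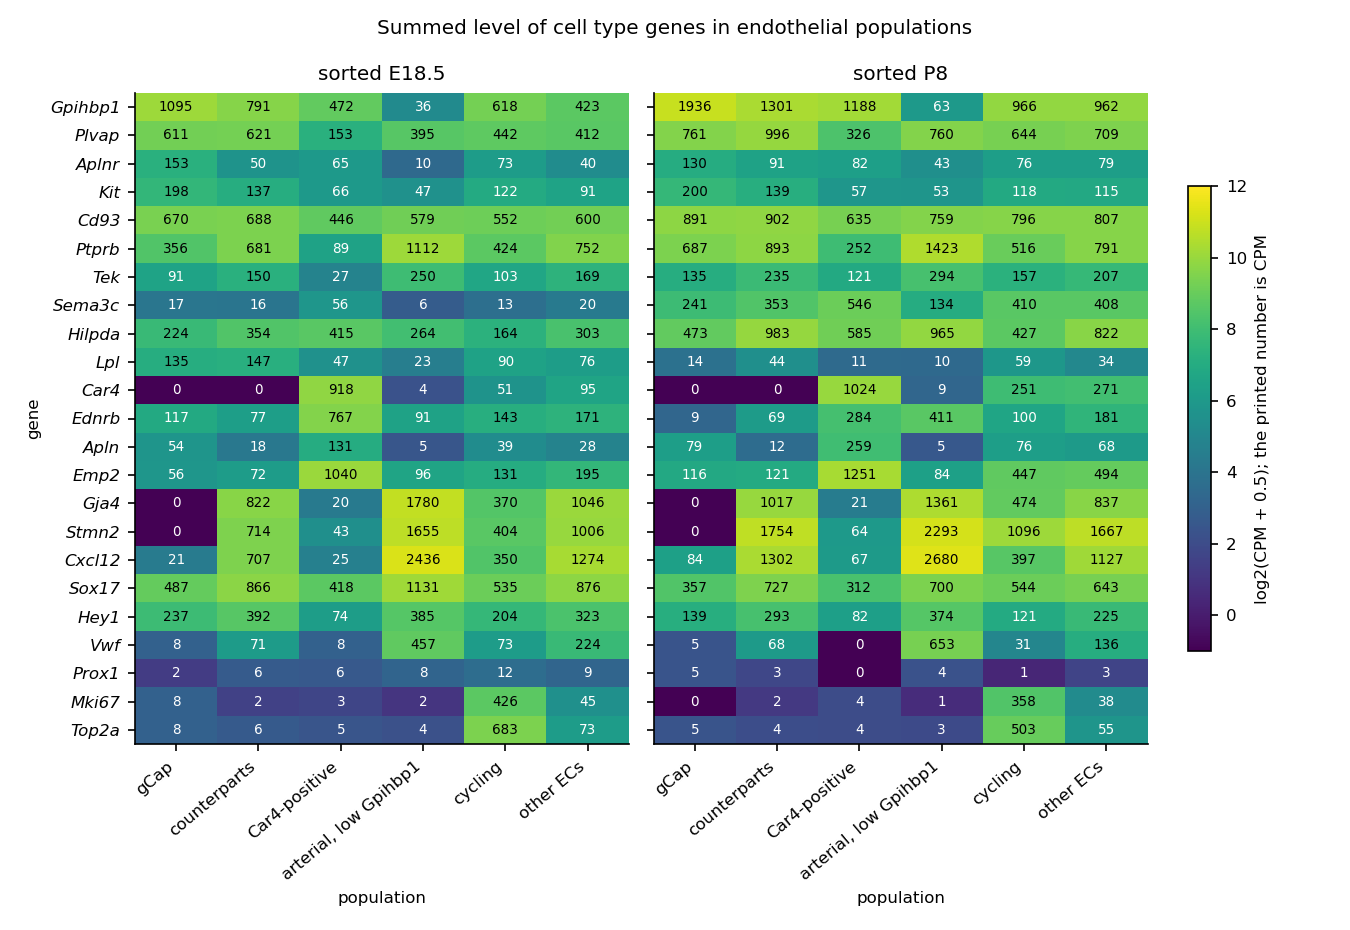
Summed level of 23 cell type genes (rows) in 6 endothelial populations (columns) of the sorted E18.5 and P8 libraries, as CPM (printed numbers) on a colour scale of log2(CPM + 0.5). gCap cells show Aplnr and Kit above the other ECs (153 and 39.9 CPM of Aplnr at E18.5) and Ptprb and Tek below them at E18.5. Summed over the gCap markers outside the rule, they stand below the other ECs. The sums are 1853 against 2054 CPM at E18.5 and 2771 against 3264 CPM at P8. Cxcl12 is at 20.8 and 83.5 CPM against 1274 and 1127 CPM in the other ECs, and Gja4, Stmn2 and Car4 are at 0 by the rule.

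gCap cells were next set against the other ECs of their library. Because the rule contrasts these same cells, the counts that follow describe the selected cells and support nothing about them. Of 3468 genes of at least 50 CPM in 1 population at E18.5, 22 (0.634%) were at least 2-fold higher in gCap cells and 134 (3.86%) at least 2-fold lower. At P8, 91 (2.37%) and 145 (3.78%) of 3836 genes were so. The P8 counts rested on few cells: with up to 1 UMI of Gja4 or Stmn2 allowed, an alternative chosen after the data were seen, 122 cells met the rule at P8 and the counts were 14 and 65, while in the 17 members without UMIs of Atf3, Hspa1a or Hspa1b they were 603 and 432, with more genes on the higher side. Of the 3183 genes that reached the minimum at both time points, 6 were 2-fold higher and 46 were 2-fold lower at both, and 0 crossed from one side to the other. The 46 were also lower in gCap cells in both whole-lung libraries, by 2-fold or more for 40 in the library labelled null and 36 in that labelled control, where 2.81% and 2.51% of all genes measured were so. The 6 genes higher at both times were all above the other ECs in the library labelled null and 5 of them in that labelled control, but 0 of the 6 by 2-fold in either. The share of all genes that lay above or below the other ECs by any amount in these libraries was not counted. The same rule chose the cells there, so these counts are set in part by it.

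Genes that stood higher in gCap cells included Trp53i11, a p53-inducible gene also used as a tip cell marker, with 270.5 CPM against 102 CPM at E18.5 (log2 ratio 1.41) and 102 against 23.6 CPM at P8 (2.09). Rgcc, a regulator of the cell cycle response to complement, stood at 944 against 336 CPM and at 891 against 410 CPM (1.49 and 1.12). Ccnd1, the cyclin of G1 progression, stood at 618 against 262 CPM and at 775 against 353 CPM (1.24 and 1.13). All of these were above the other ECs in the E15.5 and both whole-lung libraries too, with log2 ratios of 0.65 to 1.49. Arhgap18, a GTPase-activating protein, showed ratios of 1.22 and 1.83, and the G protein subunit Gng2 1.18 and 1.32. The laminin chains Lamb1 and Lama4 had ratios of 0.90 and 0.69 at E18.5 and of 2.25 and 1.60 at P8, on 11 and 14 UMIs at P8. Scarb1, the high-density lipoprotein receptor, had ratios of 0.81 and 1.37, with 177 and 158 CPM in gCap cells. Flt4, the receptor for VEGF-C, was at 52.3 CPM against 39.1 CPM at E18.5 and at 74.3 against 22.8 CPM at P8. Without the limit on Gja4 and Stmn2 the P8 ratios of Ccnd1 (−0.41), Gng2 (−0.29) and Flt4 (−0.24) had the other sign, as had that of Cxcl12 (0.32).

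Among the genes lowest in gCap cells were those of the arterial wall matrix. Eln, which encodes elastin, was at 49.0 CPM in gCap cells and 1027 CPM in the other ECs at E18.5 (log2 ratio −4.38), and at 69.6 and 398 CPM at P8 (−2.51). The elastic fibre proteins Fbln5 and Fbln2 had ratios of −5.37 and −4.08 at E18.5 and of −4.47 and −3.07 at P8. Mgp, the matrix Gla protein that inhibits calcification, gave −3.77 and −4.68, and Fn1, fibronectin, −5.26 and −2.38. Of 17 arterial markers measured at E18.5, not counting the 2 of the rule, 13 were at least 2-fold lower in gCap cells and 0 higher; at P8 the numbers were 9 and 0 of 14. At this lower minimum of 20 CPM, used for the gene lists, 4.09% of 6363 genes were 2-fold lower at E18.5 and 7.37% of 6635 at P8, and 0.471% and 4.43% were 2-fold higher. Cxcl12 itself, the chemokine whose locus drove the sort, was lower in gCap cells than in the other ECs in 4 libraries with members, by log2 ratios of −6.81 at E15.5, −5.90 at E18.5, −3.75 at P8 and −5.39 in the library labelled null. In the library labelled control it was near absent from both, with 1 UMI in the members (0.299 CPM) and 77 in the other ECs (5.46 CPM), and no ratio is read there. Cxcl12 UMIs were found in 19 of the 360 members at E18.5 (median 5329 UMIs) and 13 of the 44 at P8 (4751.5). They were also found in 7.76% and 18.9% of the Car4-positive cells (median 5771 and 4513 UMIs) and in 45.6% and 13.6% of the cells outside the endothelial gate (8449 and 7095 UMIs). Both sets came through the same reporter sort, and the study reports the reporter in mesenchyme, so neither is a baseline of free RNA. In tissue sections the study saw rare Cxcl12 transcripts in capillary endothelium. The members' shares are read neither as expression nor as free RNA. The CXCL12 scavenger receptor Ackr3 stood higher in gCap cells at E18.5, at 126 CPM against 49.2 CPM, and at 144 against 114 CPM at P8.

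Of 15 measured genes of the BMP and TGF-beta pathway, through which endothelial cells take up quiescence and arterial cues, 4 were 2-fold lower in gCap cells at E18.5 and 4 at P8, with 0 higher and medians of −0.41 and −0.75. Over all genes of at least 20 CPM, 4.09% and 7.37% were 2-fold lower and 0.471% and 4.43% higher. The ligand Tgfb2 was at 9.69 and 9.28 CPM in gCap cells against 53.2 and 32.2 CPM in the other ECs, and the inhibitory Smad7 at 85.3 and 172 CPM against 216 and 387 CPM. The co-receptor Eng, endoglin, was at 225 against 228 CPM at E18.5 and 464 against 433 CPM at P8. At P8 the mitotic genes Ube2c and Cks2 had 0 UMIs in gCap cells, against 93.6 and 56.4 CPM in the other ECs, so that they were at least 6.72-fold and 4.05-fold lower by a floor of 3 UMIs. The rule caps 2 genes that mark the same phase of the cell cycle.

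**Figure D3:**
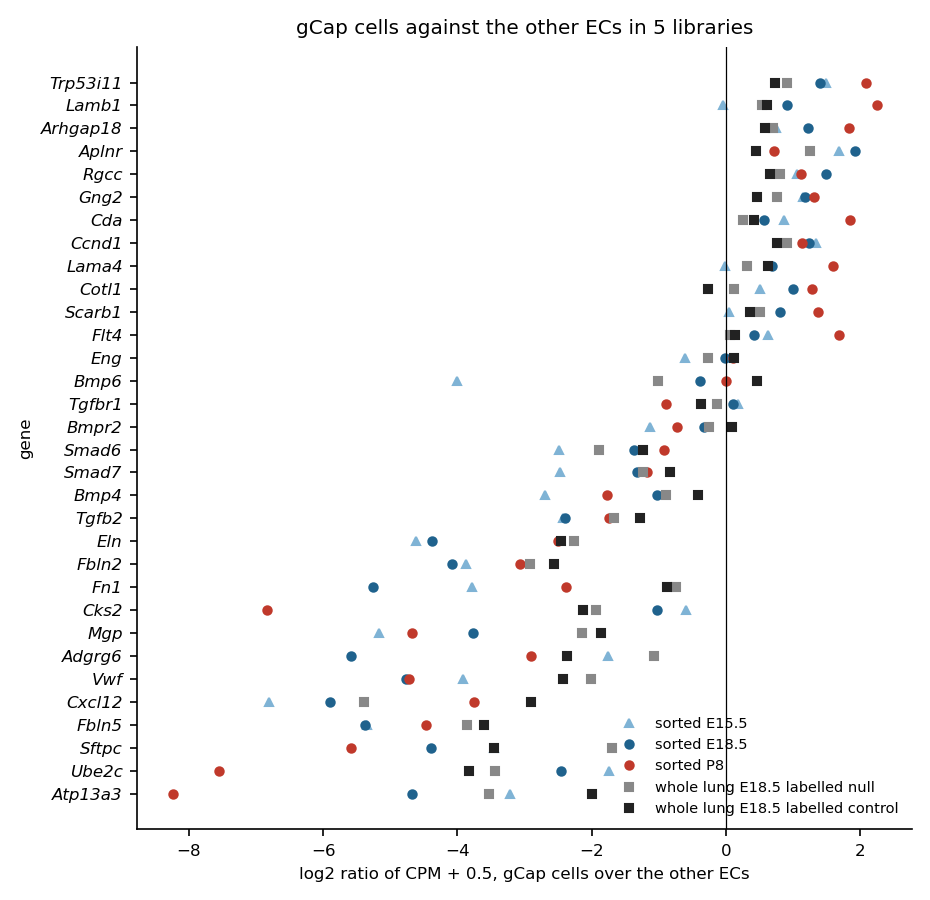
log2 ratio of CPM + 0.5 in gCap cells over the other ECs (horizontal axis) for the genes with the largest ratios in 1 direction at both time points (24 genes) and for 8 genes of the BMP and TGF-beta pathway, in the 5 libraries with members. Eln, Fbln2 and Fbln5 lie below −2 in all 5 libraries, and Cxcl12 likewise, although its point in the library labelled control rests on 1 UMI in the members, while Trp53i11, Rgcc and Ccnd1 lie between 0.65 and 2.09.

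Between E18.5 and P8, gCap cells differed in many genes, among them members of the glycolysis, fetal growth and basement membrane lists that were lower at P8 and members of the BMP pathway and immediate-early lists that were higher. Of 3805 genes of at least 50 CPM at 1 of the times, 316 (8.3%) were at least 2-fold higher and 172 (4.52%) at least 2-fold lower at P8. The counting interval of the ratio stayed on 1 side of no difference for 311 of the 316 and 149 of the 172, and lay wholly past 2-fold for 87 and 37. The median log2 ratio over all those genes was 0.18, so a ratio of that size is no difference from the bulk of genes. The split between higher and lower depended on the scaling, with 212 higher and 244 lower when the ratios were centred on that median, and 316 and 312 of 4590 genes when mitochondrial, ribosomal and haemoglobin genes were left out of each cell population's total. Direction is therefore read below from groups of genes and single genes beside this median, not from the overall excess. The counterparts, with many more cells, gave 180 (4.98%) and 119 (3.29%) of 3614 genes. Of the 316 genes, 297 were higher at P8 in the counterparts as well and 134 of them 2-fold so, and of the 172 genes 168 were lower there and 86 of them 2-fold. In cells with Xist and without Y-linked UMIs, 72 at E18.5 and 42 at P8, 403 genes were 2-fold higher and 201 lower. In cells without UMIs of Atf3, Hspa1a or Hspa1b, 146 at E18.5 and 17 at P8, the numbers were 972 and 457. Sort, pool and time cannot be told apart in a single P8 library.

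**Figure D4:**
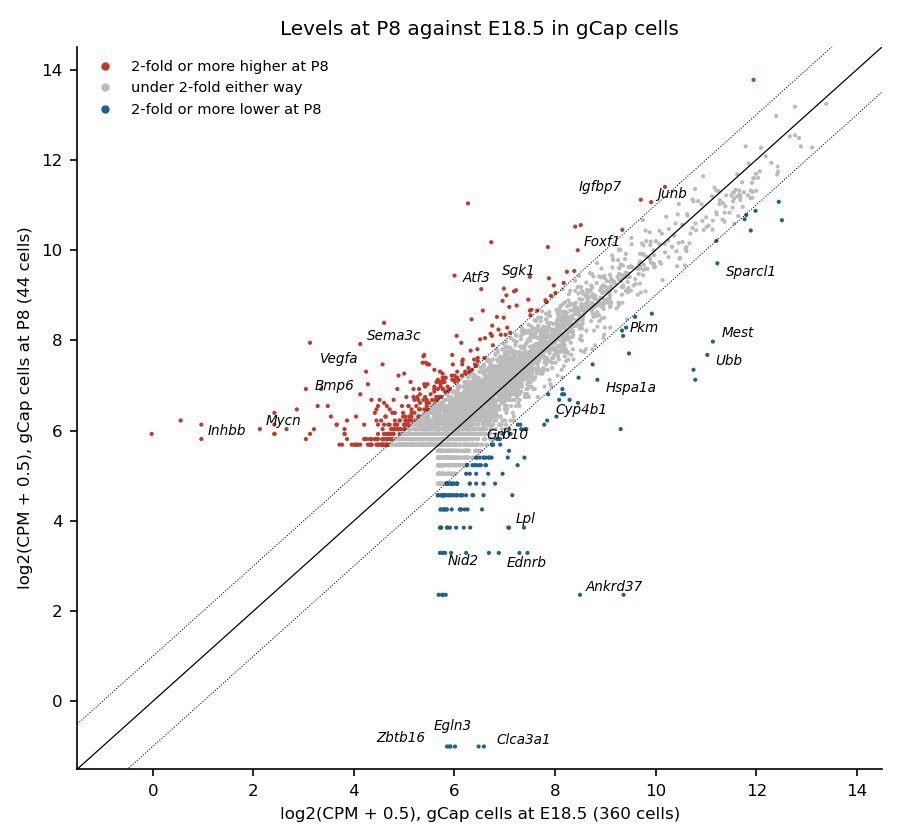
Level of each gene of at least 50 CPM at 1 of the times in gCap cells at P8 (vertical axis, 44 cells) against E18.5 (horizontal axis, 360 cells), both as log2(CPM + 0.5), with the line of equal levels and dotted lines at 2-fold. Of 3805 genes 316 lie above the upper dotted line and 172 below the lower, and Clca3a1, Egln3 and Zbtb16 sit at 0 UMIs at P8; the rows of dots at the bottom are genes of 0, 1, 2 and more UMIs in the 44 cells.

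All 12 measured genes of glycolysis had negative log2 ratios, 5 of them of 2-fold or more and 0 in the other direction, beside 7.75% of 6596 genes 2-fold lower and 10.5% 2-fold higher at the minimum of 20 CPM. Their median log2 ratio was −0.65, the same as in the counterparts. Without Eno1, an alternative chosen after the data were seen, 4 of 11 were 2-fold lower and the median was −0.63. Pfkl, a phosphofructokinase and so the committed step, was at 111 and 27.8 CPM on 230 and 6 UMIs (log2 ratio −1.98, −3.46 to −0.86). Pkm, the pyruvate kinase, was at 653 CPM (619 to 689) and 274 CPM (208 to 353), and Aldoa, the aldolase, at 429 and 176 CPM. Pkm lay at 694 CPM at E15.5 and at 620 and 490.1 CPM in the whole-lung libraries, so P8 was the lowest of the 5. Gapdh was at 798 and 515 CPM and Ldha, which makes lactate, at 470.2 and 343 CPM. Eno1, enolase, had 360 UMIs at E18.5 and 2 at P8, yet it has a near-identical copy, Eno1b, that could have taken its reads. The 16 genes of oxidative phosphorylation did not share this: 0 were 2-fold apart in either direction, and their median log2 ratio was 0.09.

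Ankrd37 and Egln3, which are known to be switched on by hypoxia-inducible factors (HIF), were close to absent at P8. In GENCODE's annotation of mm10 the genes lie at chr8:45996902-46005707 (−, ENSMUSG00000050914) and chr12:54178981-54203860 (−, ENSMUSG00000035105), and Hilpda, described next to them, at chr6:29272488-29275446 (+, ENSMUSG00000043421). Ankrd37, an ankyrin repeat protein, had 743 UMIs in 252 of 360 cells at E18.5 and 1 UMI at P8, that is 360.1 and 4.64 CPM (log2 ratio −6.13, −11.58 to −3.80). It was at 94.3 CPM at E15.5 and at 353 and 242 CPM in the whole-lung libraries. Egln3, one of the prolyl hydroxylases that mark HIF for degradation, had 124 UMIs at E18.5 and 0 at P8, and so was at least 4.32-fold lower by the floor of 3 UMIs. In the other P8 ECs Egln3 was at 0.866 CPM, so its low P8 level was not particular to gCap cells. Hilpda, which coats lipid droplets and is likewise a known hypoxia target, was higher at P8, with 224 CPM (204 to 245) and 473 CPM (386 to 575). Vegfa, the vascular growth factor, also a known hypoxia target, stood at 18.4 CPM and 158 CPM (log2 ratio 3.06, 2.39 to 3.81). Hence genes with a known response to hypoxia lay on both sides. Promoters were searched for the letters ACGTG, a form of the HIF binding motif, or CACGT on the other strand, and for no other form. The promoters of 3 of these genes, chosen after their values were seen, are printed here to show the windows searched, with those letters in capitals. They run from 250 bases before to 50 after the annotated start, on the strand of the gene, in RefSeq's annotation of GRCm38.p6: chr8:45999801-46000100 (−) for Ankrd37, chr12:54203825-54204124 (−) for Egln3 and chr6:29272238-29272537 (+) for Hilpda. The start that RefSeq gives Ankrd37 lies inside the longer span that GENCODE gives the gene.
Ankrd37: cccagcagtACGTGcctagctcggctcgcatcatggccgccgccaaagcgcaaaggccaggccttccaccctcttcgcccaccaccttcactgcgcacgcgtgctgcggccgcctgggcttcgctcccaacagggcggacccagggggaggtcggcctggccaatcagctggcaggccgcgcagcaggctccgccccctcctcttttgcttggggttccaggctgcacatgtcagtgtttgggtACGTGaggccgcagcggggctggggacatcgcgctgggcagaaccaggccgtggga
Egln3: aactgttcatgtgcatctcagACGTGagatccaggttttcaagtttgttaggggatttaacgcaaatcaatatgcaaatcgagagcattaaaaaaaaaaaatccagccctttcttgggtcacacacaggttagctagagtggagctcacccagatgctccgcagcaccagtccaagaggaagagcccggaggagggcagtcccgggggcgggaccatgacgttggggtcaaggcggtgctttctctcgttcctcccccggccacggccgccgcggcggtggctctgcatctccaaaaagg
Hilpda: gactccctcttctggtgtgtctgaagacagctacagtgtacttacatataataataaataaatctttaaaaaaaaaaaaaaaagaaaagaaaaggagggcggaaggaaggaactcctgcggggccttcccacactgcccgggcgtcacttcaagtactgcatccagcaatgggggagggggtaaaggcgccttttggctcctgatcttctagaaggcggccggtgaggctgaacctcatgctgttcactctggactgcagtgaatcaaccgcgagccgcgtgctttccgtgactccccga
The Ankrd37 window holds 2 matches, the Egln3 window 1 and the Hilpda window 0. Of all 32851 promoters in that annotation 19.6% hold at least 1 match, of the 3000 promoters of genes of at least 50 CPM in gCap cells 27.4%, and of the 12 glycolysis genes 4. The 5 glycolysis genes that were 2-fold lower, Pfkl, Pfkp, Aldoa, Pkm and Eno1, had 0 matches, as had Vegfa. Ldha had 5, Pgk1 2, Gapdh 1 and Pgam1 1, and all of these were under 2-fold. A match is a description of these letters and not a binding site, and the motif was chosen after the expression values were seen. Nor does a window without a match show that a gene lacks a site, since sites outside the window were not searched. For a gene with more than 1 promoter only the first was kept, except in the count of all 32851.

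Fetal growth genes, most of them imprinted, were mostly lower at P8. Of 11 measured, 7 were at least 2-fold lower and 1 higher at P8, beside 10.5% higher and 7.75% lower over all genes, with a median log2 ratio of −1.65 (−1.48 when the gene without UMIs at P8 was set to its bound, and −1.43 in the counterparts). Mest, an imprinted gene of fetal growth, was among the most abundant transcripts at E18.5, at 2251 CPM in 356 of 360 cells, and was at 251 CPM (188 to 327) in 24 of 44 cells at P8. It stood at 1866 CPM at E15.5 and at 2001 and 1999 CPM in the whole-lung libraries, so of the 5 libraries with members P8 was the low one. Plagl1, an imprinted zinc finger regulator, had 84 UMIs and 1 UMI, Grb10, which dampens insulin and IGF receptor signalling, 220.1 and 69.6 CPM, and Cdkn1c, the p57 cell cycle inhibitor, 69.8 and 18.6 CPM. Igf2bp1, an RNA-binding protein of fetal tissues, had 43 UMIs and 0, which by the floor allows no more than at least 1.497-fold. In the other P8 ECs it was at 0.212 CPM. Peg3, paternally expressed, ran against the list at 107 CPM (93.0 to 122) and 274 CPM (208 to 353). In the IGF family, Igf1 was at 60.6 and 9.28 CPM (125 and 2 UMIs) and Igfbp7, a binding protein of the vessel wall, at 834 and 2219 CPM, although 122 of its 478 UMIs at P8 came from 1 cell.

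A part of the basement membrane genes was lower at P8. Of 15 measured, 4 were 2-fold lower and 0 higher (7.75% and 10.5% over all genes), with a median log2 ratio of −0.54 in gCap cells and −0.89 in the counterparts. Sparcl1, an antiadhesive matrix protein, was at 2395 CPM (2328 to 2463) and 835 CPM (718 to 967), and was at 2134 and 2085 CPM in the whole-lung libraries. Nid2, which links laminin to collagen IV, had 211 UMIs and 2 UMIs, and Col18a1, the source of endostatin, 91 and 2. The main collagen IV chain Col4a1 and the matrix protein Sparc did not differ beyond counting error, with 1320 and 1276 CPM and with 3688 and 3871 CPM. Lamb1 had log2 ratios of −0.95 in gCap cells and −2.39 in the counterparts. Of 14 junction and caveola genes 1 was 2-fold lower, Jam2, at 96.0 and 41.8 CPM, a share near the 7.75% of all genes. Cav1, the caveola coat protein, was at 1534 and 808 CPM and the sialomucin Emcn at 1378 and 798 CPM, both under 2-fold.

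Between the time points, 5 of 13 measured genes of the BMP and TGF-beta pathway were 2-fold higher at P8, 1 was lower and 7 lay between, beside 10.5% higher and 7.75% lower over all genes at this minimum, with a median log2 ratio of 0.51 and of 0.45 in the counterparts. Centred on the median of all genes, the counts were 2 and 1, since Bmpr2, Eng and Smad7 lay just past 2-fold. The share over all genes so centred was taken only at the minimum of 50 CPM, where 212 of 3805 genes were higher and 244 lower. The ligand Bmp6 was at 17.0 CPM (35 UMIs) and 111 CPM (24 UMIs), the receptors Bmpr2 and Eng at 129 and 278 CPM and at 225 and 464 CPM. The inhibitory Smad6 and Smad7, both known feedback targets of the pathway, stood at 41.7 and 130.0 CPM and at 85.3 and 172 CPM. The BMP9 receptor Acvrl1 was level, at 554 and 589 CPM, and the target genes Id1 and Id3 were at 327 and 446 CPM and at 942 and 1346 CPM. Tgfbr1, the TGF-beta type I receptor, was the member lower by 2-fold, on 71 and 3 UMIs, and its counting interval reached 0.30. Tmem100, a membrane protein known as a target of BMP9 and Acvrl1 signalling in endothelium, was not on the list and was picked out after its values were seen: it had 218 and 249 UMIs, that is 106 and 1156 CPM (log2 ratio 3.45, 3.18 to 3.72), against a ratio of 2.25 in the counterparts.

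Of 23 measured transcription factors of endothelium and lung mesoderm, 2 were 2-fold higher and 1 lower, shares near those over all genes (10.5% and 7.75%). Foxf1, the factor of the lung mesoderm that is needed for the alveolar capillary bed, was at 349 CPM (324 to 376) and 1021 CPM (891 to 1165), and the homeobox gene Hlx at 96.9 and 265 CPM. Foxf1 was at 127 CPM at E15.5 and at 389 and 309 CPM in the whole-lung libraries. Nr2f2, which sets venous identity, had 59 UMIs and 1. Erg, Gata2 and Sox18, which are broad endothelial factors, had log2 ratios of 0.02, −0.15 and 0.08.

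Among the VEGF ligands, Vegfa was 2-fold higher as given above and Vegfc, the lymphatic ligand, 2-fold lower on 59 UMIs and 1 (log2 ratio of 0.19, the other direction, on cells thinned to 2000 UMIs), while the receptors Kdr and Flt1 were within their counting error, at 494 and 427 CPM and at 263 and 306 CPM. In the CXCL12 axis, 2 of 3 genes were 2-fold higher (10.5% of all genes): the ligand Cxcl12 at 20.8 CPM (15.1 to 28.1) and 83.5 CPM (49.5 to 132), and its receptor Cxcr4 at 21.8 and 92.8 CPM. Cxcl12 was at 707 and 1302 CPM in the counterparts, and at 6.28 CPM in the E15.5 members. Ackr3 was level at 126 and 144 CPM. In the Notch pathway 1 of 11 genes was 2-fold higher, a share near the 10.5% of all genes, namely Nrarp, a feedback target, at 31.5 and 153 CPM. Dll4, the tip cell ligand, was at 114 and 223 CPM, and Hes1, a target, at 464 and 473 CPM. Of 10 genes of apelin, Tie and Kit signalling 0 were 2-fold apart, and none of 7 Wnt genes was, though their median log2 ratio was 0.57. Aplnr had a log2 ratio of −0.24 (−0.85 to 0.32) in gCap cells and of 0.86 in the counterparts. Of 10 tip cell and sprouting genes 2 were 2-fold higher and 2 lower (10.5% and 7.75% of all genes), with a median log2 ratio of 0.27. Esm1, a secreted proteoglycan, was at 22.3 and 102 CPM and Cxcr4 higher as given above, while Trp53i11 was lower, at 270.5 and 102 CPM on 558 and 22 UMIs, as was Nid2, described with the basement membrane.

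Capillary lipid handling showed no single direction. Of 12 measured genes besides the 2 of the rule, 1 was 2-fold higher and 3 lower, beside 10.5% higher and 7.75% lower over all genes. Lpl, the lipase that GPIHBP1 carries to the capillary surface, had 279 UMIs in 107 of 360 cells at E18.5 and 3 UMIs in 2 of 44 cells at P8 (135 and 13.9 CPM, log2 ratio −3.23, −5.57 to −1.72). It was at 1.57 CPM at E15.5 and at 69.7 and 114 CPM in the whole-lung libraries. Gpihbp1, which the rule used, was at 1095 and 1936 CPM. Cd36, the fatty acid transporter, was at 283 and 562 CPM and the binding protein Fabp5 at 283 and 121 CPM. Acsl1 and Acsl3, which activate fatty acids, rested on 62 and 2 UMIs and on 20 and 5 UMIs. Of 7 cholesterol synthesis genes 3 were 2-fold higher (10.5% of all genes), with at most 10 UMIs each at P8. The cholesterol genes had a median log2 ratio of 0.87. Of the 8 measured gCap markers outside the rule, Sema3c, a secreted semaphorin, and Hilpda were 2-fold higher and Lpl lower. Sema3c was at 0 at E15.5, at 17.0 CPM (11.8 to 23.6) at E18.5 and at 241 CPM (180 to 317) at P8, in 26 of 360 and 28 of 44 cells, and at 12.3 and 8.67 CPM in the whole-lung libraries. It was also higher at P8 in the counterparts, by a log2 ratio of 4.42.

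Of 8 measured aerocyte genes, Ednrb, the endothelin B receptor, and Cyp4b1, a cytochrome P450, were 2-fold lower (7.75% of all genes). Emp2, a tetraspan membrane protein, was 2-fold higher at a log2 ratio of 1.05, a share near the 10.5% of all genes. Centred on the median of all genes, 0 were higher and 2 lower. Ednrb had 242 UMIs in 117 of 360 cells at E18.5 and 2 UMIs in 2 of 44 cells at P8 (117 and 9.28 CPM, log2 ratio −3.59, −6.71 to −1.79), while it was at 171 and 181 CPM in the other ECs. In the counterparts it was at 76.5 and 69.0 CPM. Cyp4b1 was at 229 and 74.3 CPM, and at 14.1 CPM at E15.5. Of the arterial markers outside the rule, 3 of 9 were 2-fold higher at P8 (10.5% of all genes), Cxcl12, the tetraspanin-like Tm4sf1 (364 and 1504 CPM) and the taurine transporter Slc6a6 (39.3 and 111 CPM). Edn1, the vasoconstrictor endothelin, was at 126 and 241 CPM and the angiotensin-converting enzyme Ace at 431 and 381 CPM.

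Among the immune and haemostatic lists, 2 of 12 MHC class I genes were 2-fold higher at P8 and 2 lower, 1 and 2 of 12 interferon and Ly6 genes, 1 and 0 of 3 leukocyte adhesion genes, and 2 and 0 of 7 haemostasis genes, beside 10.5% and 7.75% over all genes. The abundant heavy chains H2-D1 and H2-K1 had log2 ratios of 0.19 and 0.12. No MHC class II gene reached 20 CPM. Among the interferon and Ly6 genes, Irf1 was higher at 61.1 and 149 CPM, while Irf7, the master regulator of the interferon response, had 91 UMIs and 1 and Isg15 129 and 6. Icam1, the leukocyte adhesion receptor, was at 70.8 and 176 CPM, but in cells without UMIs of Atf3, Hspa1a or Hspa1b it was lower at P8 (log2 ratio −6.63), where it had no UMI. Plat, the plasminogen activator, was at 11.1 and 78.9 CPM (23 and 17 UMIs).

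Immediate-early genes, which are induced within minutes by growth signals or by the dissociation of tissue, were in part higher at P8: 6 of 16 were at least 2-fold higher, 2 lower and 8 between, beside 10.5% and 7.75% over all genes, with a median log2 ratio of 0.84 (1.03 in the counterparts). Centred on the median of all genes, 3 were 2-fold higher and 2 lower, beside 212 and 244 of 3805 genes at the minimum of 50 CPM. Atf3 was at 126 CPM (111 to 142) and 566 CPM (470 to 676), Egr1 at 126 and 362 CPM, Junb at 962 and 2140 CPM and Socs3, a brake on cytokine signalling, at 301 and 733 CPM. The 2 lower genes were the heat shock genes Hspa1a and Hspa1b, at 458 and 139 CPM and at 133 and 41.8 CPM. A further heat shock gene outside the list, Hspb1, was at 326 and 357 CPM. In the whole-lung E18.5 libraries, Hspa1a was at 2.98 and 2.39 CPM and Atf3 at 48.8 and 28.1 CPM, so the sorted E18.5 and P8 cells were both above the unsorted ones. The part of cell handling in the other differences was not tested. Among 10 glucocorticoid-responsive genes 3 were 2-fold higher and 3 lower (10.5% and 7.75% of all genes). The kinase Sgk1 was at 130.4 and 511 CPM and Errfi1, an inhibitor of EGF receptor signalling, at 25.7 and 88.2 CPM. Zbtb16, a zinc finger factor, had 118 UMIs and 0, and was at least 4.11-fold lower. It was low in the other P8 ECs too, at 2.39 CPM. The sulfotransferase Sult1a1 had 322 UMIs and 2.

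**Figure D5:**
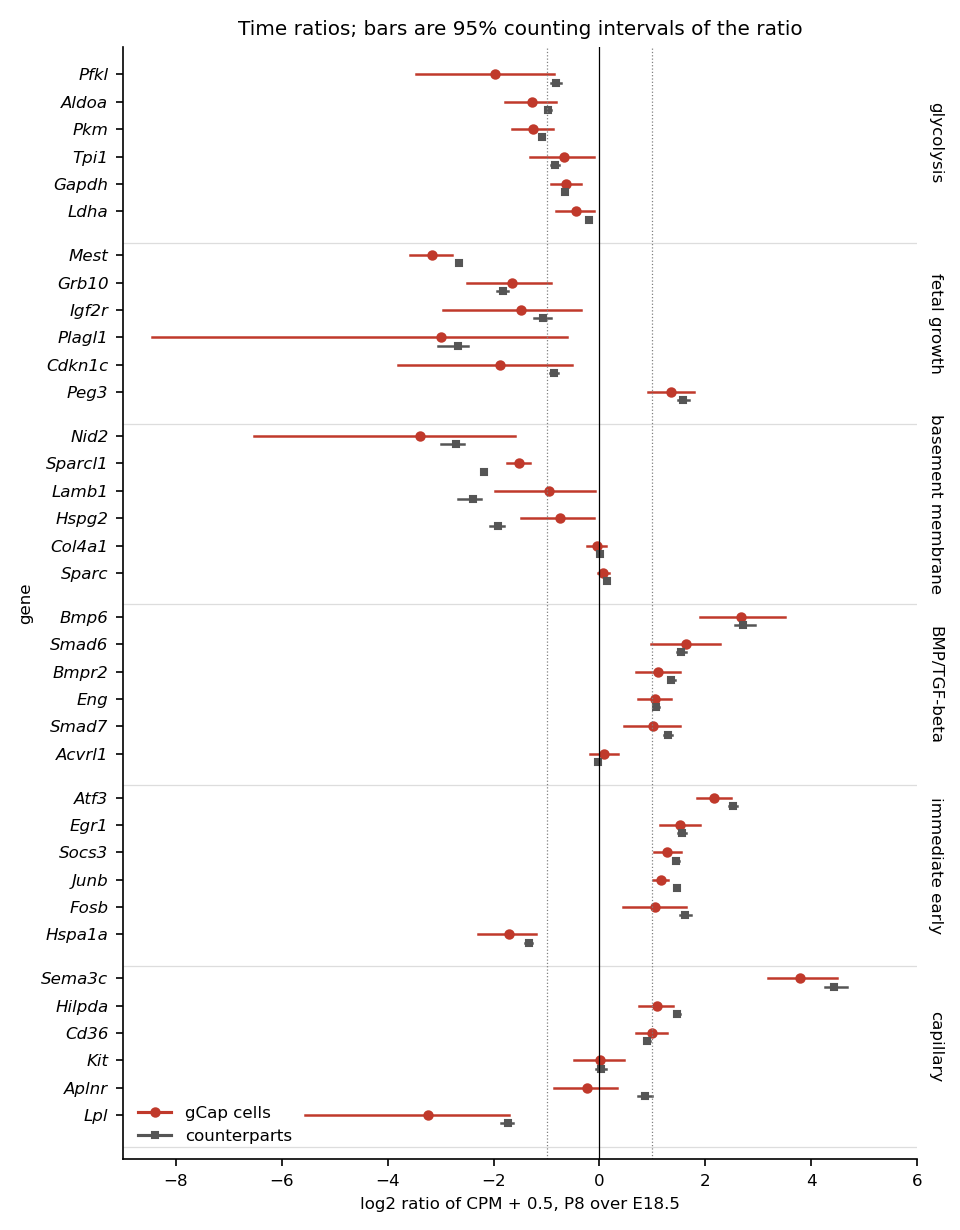
log2 ratio of CPM + 0.5 at P8 over E18.5 (horizontal axis) with its 95% counting interval for 36 genes in 6 groups, in gCap cells (circles) and counterparts (squares), with dotted lines at 2-fold. The ratios are not centred on the median of all genes. The BMP genes Bmp6, Smad6, Bmpr2, Eng and Smad7 lie at or above a ratio of 1 in both. The glycolysis genes lie below 0 in both, and Aplnr at −0.24 and 0.86.

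Among all genes, many of the largest ratios rested on few UMIs at 1 of the times. Of the 12 genes furthest up, Rrad, a small GTPase, had 1 UMI at E18.5 and 13 at P8, all 13 in 1 cell, and its ratio had the other sign with a Plvap minimum of 2 (−1.13) and in cells without UMIs of Atf3, Hspa1a or Hspa1b (−1.96). Wfdc1, a secreted protease inhibitor, had 3 and 15 UMIs, Inhbb, the beta B chain of activin, 3 and 12, and Mycn, the MYC family factor, 8 and 14. Pcna, Rnaset2a and Ftl1-ps1 have near-identical copies and their ratios are uncertain, while Nme2, Wdr74 and Bloc1s1 had 10, 10 and 20 UMIs at E18.5 and 18, 15 and 26 at P8. Of the 12 furthest down, Clca3a1, a chloride channel regulator, had 197 UMIs in 127 cells at E18.5 and 0 at P8, and was at least 6.86-fold lower. It was low in the other P8 ECs too, at 2.22 CPM. Ccdc85b had 343 and 3 UMIs, Bgn, the proteoglycan biglycan, 116 and 1, and Ppp1r37 112 and 1. Ubb, a polyubiquitin gene, had 4303 and 44 UMIs, or 2086 and 204 CPM. Ubb, Nme2, Eno1 and Bloc1s1 had like levels in the other ECs of the 4 libraries that were not P8 and another at P8, with 1727 to 2241 CPM of Ubb against 241 CPM, and the cause of this was not tested. The deposited gene table was the same in all 6 libraries and the Cell Ranger version in the header was the same at E15.5, E18.5 and P8, but whether the P8 reads were aligned with the same transcript models was not tested, so the P8 ratios of these 4 genes are uncertain.

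A part of the cells that otherwise met the rule was cycling, taken as 2 or more UMIs of Mki67 and Top2a. At E15.5 it was 199 of 330 cells (60.3%), at E18.5 81 of 441 (18.4%, 14.9 to 22.3) and at P8 7 of 51 (13.7%, 5.70 to 26.3). After each cell was thinned to 2000 UMIs, with 2 shallower cells left out at E18.5, 2 at P8 and 0 at E15.5, the shares were 23.6%, 12.3% and 10.2%. The difference between E18.5 and P8 was not tested. Cells with Gja4 or Stmn2 that met the rest cycled in 39.2%, 10.2% and 5.47%, and all other ECs in 21.4%, 5.76% and 5.68%. The rule allows members 1 UMI of Mki67 or Top2a, so cycling cells can be among them. Cdk1 UMIs were held by 63 of 360 members at E18.5 and 4 of 44 at P8. Of 14 cell cycle genes measured in the members, 2 were 2-fold higher at P8 and 3 lower, where the shares over all genes were 10.5% and 7.75%. The replication helicase Mcm3 was at 41.2 and 102 CPM, and the mitotic genes Birc5, Cenpa and Cdk1 had 65, 117 and 94 UMIs at E18.5 and 1, 4 and 4 at P8.

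Variation among gCap cells was measured gene by gene. On cells thinned to 2000 UMIs (358 at E18.5, 42 at P8), the Fano factor, the variance of a gene's UMIs over its mean, had a median near that of counting alone, 1.04 at E18.5 and 1.02 at P8 over 2661 genes. The immediate-early genes Fos and Jun were among the 8 highest, with 3.41 and 2.36 at E18.5 and 6.22 and 4.17 at P8. Igfbp7 had 3.44 and 12.3, and the chaperone Hspb1 3.62 and 3.09. Hspa1a had 3.41 and 3.66, was absent from 69.8% and 85.7% of the thinned cells and reached 10 and 6 UMIs in a cell. Gadd45g, a growth arrest gene, had 1.70 and 4.79. Before thinning, 1 cell held 20 of its 59 UMIs at P8, and 1 cell held 122 of the 478 of Igfbp7, so these P8 values lean on single cells. Among genes of the cytoskeleton, which every cell held, Actb had 3.03 and 3.43 and Tmsb4x, which binds actin monomers, 2.81 and 5.88.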

How the data were processed

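Droplet single-cell RNA-seq libraries (10x 3′ v3) of 4 samples labelled as Cxcl12+ sorts and 2 whole-lung samples were used. In the E13.5 sort 168 of 12726 cells met the endothelial gate and 0 the gCap rule, so it gives no values here. The authors ran Cell Ranger (3.1 in the submitters' processing notes, 3.0.2 or 3.1.0 in the matrix headers) on mm10 and deposited raw UMI counts per gene and called barcode, with no normalisation. Seurat 3.2.2 is named in the same notes. Matrices corrected for free RNA with SoupX were not used here, so free RNA stayed in the counts.

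The members and the 37 gene lists were chosen with earlier results of these data known. Cells were gated by the rule of the opening paragraph and their counts summed per library. Levels are CPM over all UMIs of a population, with exact Poisson intervals. Ratios are log2 of CPM plus a pseudocount of 0.5, with exact conditional counting intervals at 95%. The GTF of GENCODE vM21 gave gene positions. A gene was counted at 50 CPM or more in 1 of the populations compared (20 CPM in gene lists) and called 2-fold apart at a ratio of at least 1 or at most −1 on the log2 scale. Each time point was 1 library, so no test was run. A gene with 0 UMIs was given a bound from a floor of 3 UMIs.

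Named genes were the 12 furthest up and the 12 furthest down between time points (a) and against the other ECs (b), up to 5 and 3 members of each list for these contrasts (c), and the 8 with the highest Fano factor (d). Haemoglobin, mt-, ribosomal protein, Gm and Rik genes, Lars2, Malat1, Xist, Tsix, Ddx3y, Eif2s3y, Kdm5d, Uty and the 13 genes of the rule were left out of a, b and d. A gene named under (a) is not reported here. Other genes named, among them Tmem100, were chosen after their values were seen. Doublets were scored with Scrublet. Its automatic threshold called under 0.5% of cells, so the top scores at the expected rate of 8% were taken, 8.21% of the E18.5 and 8.86% of the P8 library, and were kept in the main counts. The shares, ratios and their intervals were tested on counts simulated with Poisson or binomial error only. Since the intervals assume that same error, the test cannot show that they hold for UMIs that cluster in single cells. Python 3.11.15 with numpy 2.4.6, pandas 2.3.3, scipy 1.17.1, scanpy 1.11.5 and matplotlib 3.10.9 was used.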

Additional observations from a re-analysis of the deposited data

Results flagged for a closer look

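For 3 named genes the log2 ratio of P8 over E18.5 in gCap cells had the opposite sign to that in the other ECs of the same libraries, with both counting intervals on their own side of 0. With 1 library per time point the difference between the ratios was not tested. Ednrb, the endothelin B receptor, had a ratio of −3.59 (−6.71 to −1.79) in gCap cells, on 242 and 2 UMIs, and of 0.08 (0.045 to 0.124) in the other ECs. The latter is no larger than the median ratio over all genes, 0.18 in gCap cells and 0.096 in the counterparts, so that its sign depends on the scaling. Cxcl12 had a ratio of 1.98 (1.12 to 2.83) in gCap cells, on 43 and 18 UMIs, and of −0.18 (−0.19 to −0.16) in the other ECs. Within the Car4-positive cells it was higher at P8 as well, at 25.2 and 67.4 CPM against 20.8 and 83.5 CPM in gCap cells. Slc6a6, the taurine transporter, had a ratio of 1.49 (0.78 to 2.18), on 81 and 24 UMIs, and of −0.21 (−0.23 to −0.18) in the other ECs. Among the counterparts the ratios of Cxcl12 and Slc6a6 were positive, at 0.88 and 0.46, and that of Ednrb was −0.15.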

How the results depend on the processing

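No paired analysis was possible because each time point was 1 library, and for the same reason no library could be left out. The cells with Y-linked and without Xist UMIs gave no ratio at P8, where 0 cells met that limit. The E18.5 share was 4.47% and 3.39% with Gpihbp1 minimums of 1 and 3 UMIs, 5.73% without the Plvap minimum and 3.105% with a Plvap minimum of 2. Without the Plvap minimum and with 1 Car4 UMI allowed, 52 and 54 genes were 2-fold higher in gCap cells than in the other ECs at P8. On thinned cells the rule gave 125 P8 cells (1.56%), an E18.5 cycling share of 7.98%, and 14 higher and 44 lower genes against the other P8 ECs. At a minimum of 20 CPM, 693 genes were higher and 511 lower at P8 than at E18.5, with 260 lower against the other ECs at E18.5 and 294 higher and 489 lower at P8. At 100 CPM the numbers were 152 and 68 between time points, 14 and 66 at E18.5 and 22 and 56 at P8, and at 10 UMIs over both populations 938 and 1316, 231 and 1508, and 967 and 3445. With mitochondrial, ribosomal and haemoglobin genes out of the total, 312 genes were lower at P8 than at E18.5, and 138 were higher than in the other ECs at P8. Cells with Y-linked UMIs gave 34 genes higher than in the other ECs at E18.5. Cells without UMIs of Atf3, Hspa1a or Hspa1b (146 and 17 cells) gave 972 and 457 genes between time points, 39 higher at E18.5, and 603 and 432 against the other ECs at P8. The following settings were chosen after the data were seen. With 1 Gja4 or Stmn2 UMI allowed there were 600 cells (6.61%) at E18.5 and 122 (1.47%) at P8, with 14 and 65 genes against the other ECs at P8. With 3 allowed there were 931 (10.25%) and 354 (4.27%), 185 genes higher at P8 than at E18.5, and 3 and 44 against the other ECs at P8. With no limit there were 2167 (23.9%) and 3398 (41.0%), cycling shares of 11.7% and 5.58%, 187 genes higher at P8 than at E18.5, 4 and 84 against the other ECs at E18.5, and 2 and 46 at P8. In the cells with such UMIs only, 180 genes were higher at P8. Without that limit the P8 ratios over the other ECs had the other sign for Cxcl12 (0.32), Ccnd1 (−0.41), Gng2 (−0.29) and Flt4 (−0.24). The time ratio had the other sign for Rrad with a Plvap minimum of 2 (−1.13) and in cells without UMIs of Atf3, Hspa1a or Hspa1b (−1.96), for Icam1 in those cells (−6.63), where it had no P8 UMI, and for Vegfc on thinned cells (0.19). The cause was not tested. The 44 P8 cells limit depth, since 1 UMI is 4.64 CPM there.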
